A study of Homo sapiens with 6 samples.

Results

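Expression of 33 genes of mitosis was followed in PANC-1 cells given siRNA against SUV420H2 or labelled as control. PANC-1 is an established human cell line derived from a pancreatic ductal carcinoma, and SUV420H2 (current symbol KMT5C) is a histone methyltransferase acting on lysine 20 of histone H4. Poly(A) RNA was sequenced from 3 libraries labelled as SUV420H2 knockdown and 3 labelled as control. All 6 come from the same cell line, with no other treatment or allele named in the labels. Neither the siRNA sequence, nor what the controls received, nor the hours of treatment are stated in the labels. Nothing there says that the libraries are separate cultures, so each p-value reflects the spread between libraries alone, which can be technical. The 33 genes are a fixed set of symbols, matched by numeric gene ID among the 30727 genes of each file, and were sorted by role into 6 groups: cyclins and CDK1 control (8 genes), mitotic kinases (4), the spindle checkpoint with CDC20 and UBE2C (7), centromere proteins (3), kinesins (4), and spindle, midzone and chromosome proteins (7). All 33 were found, had between 512 and 27942 reads in every library and passed the low-count filter. The set was chosen with earlier results of these data known.

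Cells enter mitosis when the kinase CDK1, bound to cyclin A or cyclin B, becomes active. WEE1 holds CDK1 back by phosphorylating it, and the CDC25 phosphatases remove that phosphate. PLK1 and the Aurora kinases then build the spindle, the checkpoint kinases and MAD2 delay anaphase until every kinetochore is attached, and the anaphase-promoting complex (APC/C), a ubiquitin ligase activated by CDC20, destroys cyclin B and securin so that chromosomes part. Many of these genes are transcribed mainly in G2 and M phase through a short promoter element, the CHR (cell cycle genes homology region), next to CCAAT boxes bound by NF-Y, while E2F sites mark genes that peak earlier, at the G1/S boundary.

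The promoters of 5 members are shown because these differed in their response to the knockdown: CCNB1, which fell, CCNB2, its close relative, whose difference did not pass, and CDC25A, PLK1 and BUB1B, which rose. Each line gives the 150 bases before the RefSeq start (GRCh38.p14), 5′ to 3′ on the gene's strand. Capitals mark the classical CHR letters TTTGAA, the related run TTTAAA (which reads the same on both strands), the NF-Y box CCAAT in either orientation, so also as ATTGG, and a common E2F site with the letters TTTGGCGC. Both strands were searched for each.
CCNB1 (chr5:69167000-69167149, plus strand): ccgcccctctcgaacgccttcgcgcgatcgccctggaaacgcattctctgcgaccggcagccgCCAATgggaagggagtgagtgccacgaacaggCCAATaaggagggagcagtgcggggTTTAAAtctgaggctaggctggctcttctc
CCNB2 (chr15:59104996-59105145, plus strand): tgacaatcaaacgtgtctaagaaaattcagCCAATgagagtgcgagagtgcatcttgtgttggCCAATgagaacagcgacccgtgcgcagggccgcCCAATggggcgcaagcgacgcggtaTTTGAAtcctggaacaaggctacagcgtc
CDC25A (chr3:48188418-48188567, minus strand): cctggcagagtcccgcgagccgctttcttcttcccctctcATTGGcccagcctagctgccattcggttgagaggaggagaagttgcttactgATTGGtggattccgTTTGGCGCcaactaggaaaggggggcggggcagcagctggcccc
PLK1 (chr16:23678739-23678888, plus strand): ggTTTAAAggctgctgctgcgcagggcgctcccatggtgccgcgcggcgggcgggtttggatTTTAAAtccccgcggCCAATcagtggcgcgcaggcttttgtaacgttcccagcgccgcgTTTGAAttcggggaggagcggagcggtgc
BUB1B (chr15:40160919-40161068, plus strand): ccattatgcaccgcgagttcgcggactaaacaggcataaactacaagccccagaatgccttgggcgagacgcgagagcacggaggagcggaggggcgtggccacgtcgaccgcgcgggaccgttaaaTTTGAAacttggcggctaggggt

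The layout of the B-type cyclin promoters is alike in spacing. CCNB2 has CCAAT 120, 87 and 54 bases before the start and TTTGAA 29 bases before it, and CCNB1 has CCAAT 87 and 55 bases and TTTAAA 30 bases before its start. CDC25A has CCAAT on the opposite strand 110 and 58 bases before the start and the E2F letters TTTGGCGC 44 bases before it. In PLK1, TTTGAA lies 29 bases before the start, and in BUB1B 23 bases before it. RefSeq windows of 300 bases (250 before to 50 after the start) were at hand for 26 of the 33 genes, 36 windows in all. Of these windows 52.8% held TTTGAA on either strand, against 15.2% of 35116 windows of all genes, and 27 of the 36 held CCAAT, against 34.6% of all windows. Both were present in 47.2%, against 5.90%. The run TTTAAA was present in 33.3% against 12.2%. The CHR variant TTCGAA, also the same on both strands, was found in 5.56% against 1.45%, and the E2F letters TTTGGCGC in 5.56% against 0.652%. Of the 17 genes with TTTGAA, 8 rose in the knockdown, 3 fell and 6 did not pass, so members holding these letters went both ways. Of all 33 genes, the 7 without a window included, 17 rose, 6 fell and 10 did not pass. Whether the letters go with a direction was not tested. The 7 genes without a window were WEE1, AURKA, TPX2, TTK, BUB3, BIRC5 and UBE2C. A match describes the letters only.

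The targeted gene was checked first. KMT5C had 9.55, 7.23 and 12.7 CPM (counts scaled to library size) in the controls and 6.03, 6.11 and 5.86 CPM in the knockdown libraries. All knockdown values were below all controls, with edgeR giving −0.72 on the log2 scale (SE 0.163, adjusted p = 0.00227). Libraries held 20863594 to 38022772 counted reads. All 5 markers of ductal epithelium looked at (KRT7, KRT8, KRT18, KRT19 and EPCAM) were present, with 130 to 100795 reads. Of 12 markers of leukocytes, endothelium, neurons, astrocytes and microglia, 9 had at most 10 reads in every library, with AQP4 at 0, and CD14 had the most (10 to 75 reads). Their summed level was 0.492 to 0.652 RPKM in the controls and 1.42 to 1.54 RPKM in the knockdown, against 1390.1 to 1678 and 3099 to 3235 RPKM for the epithelial markers. The epithelial markers did not move alike. KRT7, KRT8, KRT18 and EPCAM were higher in every knockdown library than in every control. KRT19 was lower, at 479 to 506 RPKM against 547 to 694 RPKM in the controls. The part of these markers in the values below was not tested. Control replicate 3 stood apart from the other controls on the second principal component (5.99% of the variance). It had the lowest value of the 3 controls for 25 of the 33 mitosis genes and the highest for 6. The same was not counted over all genes, so this cannot be called particular to the mitosis genes.

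The mitosis genes moved in both directions, and the largest changes were in the regulators of CDK1. WEE1 rose 3.39-fold, CDC25A 2.60-fold and CDC25C 1.68-fold, while CCNB1 fell to 53.8% of the control level. Of the 33 genes, 17 rose, 6 fell and 10 did not pass the test. A gene was called when its adjusted p in edgeR's quasi-likelihood test was under 0.05. In that test 67.3% of all 15190 genes were called, 33.1% higher and 34.2% lower, against 23 of 33 mitosis genes called (69.7%), 51.5% higher and 18.2% lower. The share called was therefore near the background. Because the genes were chosen with earlier results of these data known, their shares in each direction describe this set only. The median log2 fold change was 0.17, against −0.01 over all genes, and 16 of the 23 called genes changed by less than 0.5 on the log2 scale. In bulk RNA, a change in the number of cells in G2 and M phase and a change in RNA per cell cannot be told apart.

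**Figure D1:**
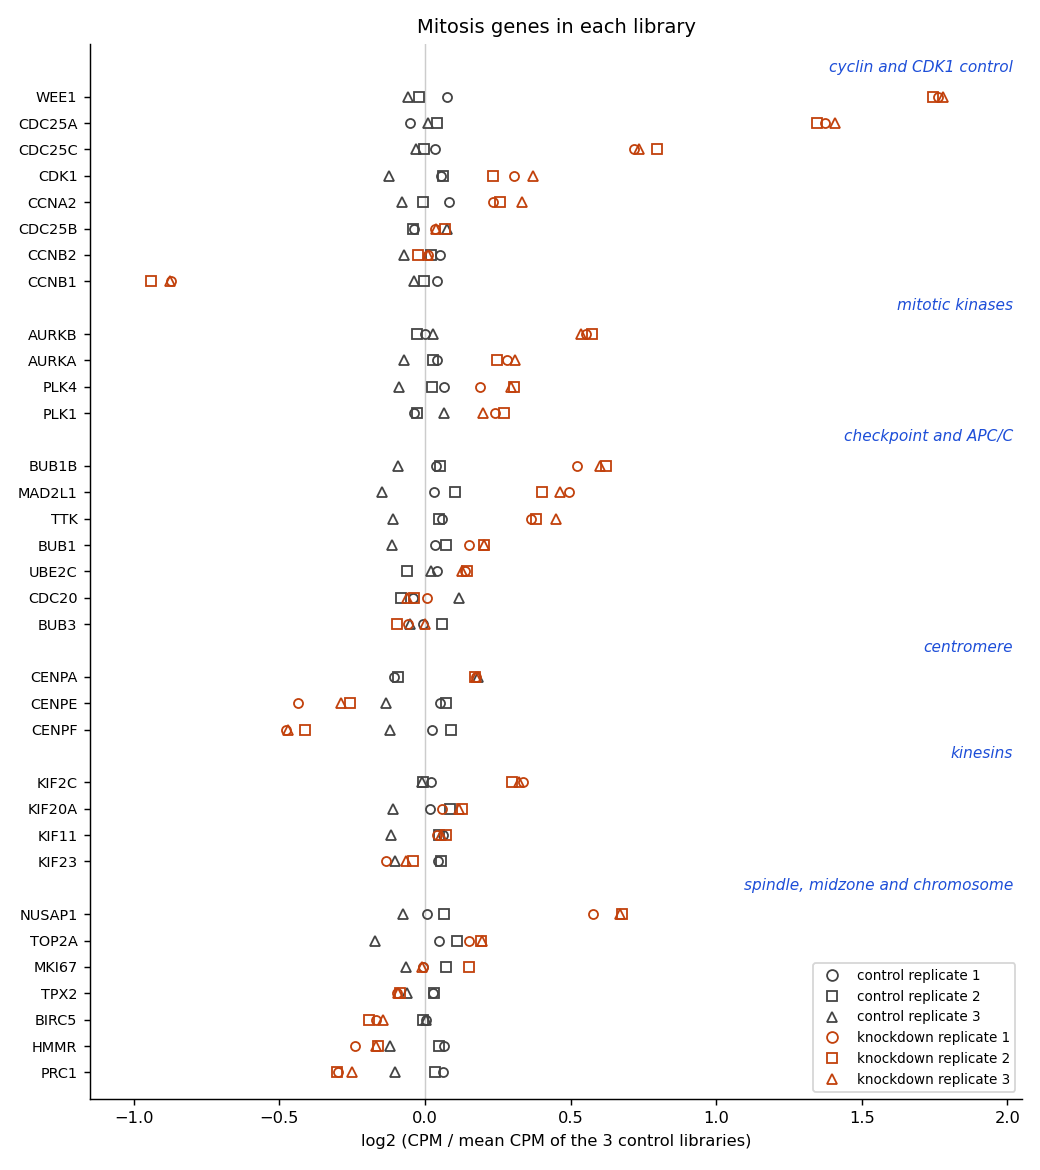
Each point is 1 library of 1 gene, as the log2 of its CPM over the mean CPM of the 3 controls (horizontal axis), with controls in grey, knockdown in orange and genes grouped by role. WEE1, CDC25A and CDC25C lie far to the right and CCNB1 far to the left in all 3 knockdown libraries. Control replicate 3 (grey triangles) is the lowest control for 25 of 33 genes, a count not made over all genes.

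Groups of libraries did not overlap for 24 of the 33 genes, against 71.3% of all genes tested. When tested against a change of 1.5-fold, 4 mitosis genes passed (WEE1, CDC25A, CDC25C and CCNB1), against 19.7% of all genes. Only WEE1 and CDC25A of the 33 changed at least 2-fold; among all genes, 14% were called and changed at least 2-fold. Without control replicate 3, 19 rose and 9 fell, while 73.1% of the 15424 genes in that fit were called, 36.4% higher and 36.7% lower.

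**Figure D2:**
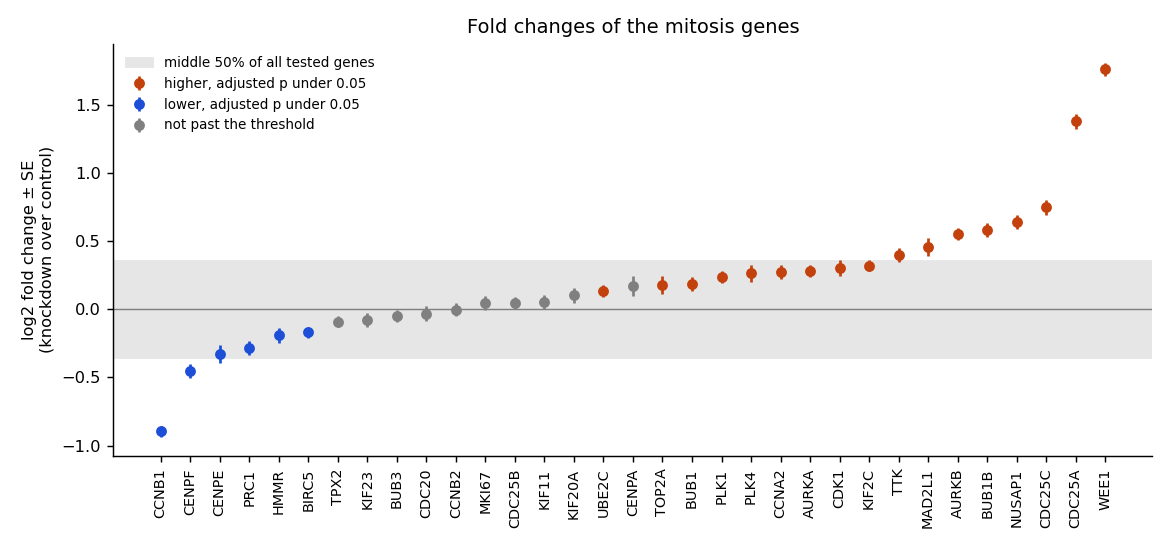
The vertical axis is the log2 fold change of knockdown over control with its SE from the edgeR fit, for the 33 genes in order of size; orange marks genes called higher, blue lower and grey those that did not pass. The grey band, from −0.36 to 0.35, holds the middle 50% of all tested genes, and 10 genes lie outside it.

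Of the 3 cyclins, CCNB1 fell, CCNA2 rose and CCNB2 did not pass. CCNB1, the main activator of CDK1 in mitosis (GRCh38 chromosome 5, 69167150 to 69178245), had 320.4, 311 and 303 CPM in the controls and 170.4, 162 and 169.8 CPM in the knockdown. Every knockdown library was far below every control (log2 fold change −0.90, SE 0.0420, edgeR adjusted p = 1.45e-08). CCNB2, which encodes the Golgi-associated cyclin B2 (chromosome 15, 59105146 to 59125045), had 94.9, 92.8 and 87.1 CPM in the controls and 92.2, 90.01 and 92.2 CPM in the knockdown. The knockdown range lay inside that of the controls, and edgeR put the difference at −0.0020 on the log2 scale (SE 0.0467, adjusted p = 0.973). CCNA2, the cyclin of S phase and early mitosis, rose from 93.2 ± 5.31 to 113 ± 4.13 CPM (SD, n = 3 each; log2 fold change 0.28, SE 0.0525, edgeR adjusted p = 0.000732). CDK1 itself rose from 129.6 ± 9.17 to 160.1 ± 7.47 CPM (SD, n = 3 each; log2 fold change 0.30, SE 0.0578, edgeR adjusted p = 0.000707).

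Of the enzymes that set the inhibitory phosphate of CDK1, the kinase WEE1 and the phosphatases CDC25A and CDC25C rose, and CDC25B did not pass. WEE1, the inhibitory kinase (chromosome 11, 9573670 to 9589985), had 63.6, 59.4 and 57.9 CPM in the controls and 205, 202 and 207 CPM in the knockdown. The groups were widely parted, with a log2 fold change of 1.76 (SE 0.0474, edgeR adjusted p = 3.24e-10), above 96.9% of all genes tested. CDC25A, a phosphatase that acts at G1/S as well as at mitotic entry (chromosome 3, 48157146 to 48188417), had 25.8, 27.6 and 26.96 CPM in the controls and 69.4, 68.1 and 71.1 CPM in the knockdown. All knockdown libraries were again above all controls (log2 fold change 1.38, SE 0.0521, edgeR adjusted p = 3.46e-09). CDC25C, which activates CDK1 at entry (chromosome 5, 138285265 to 138338355), had 25.3, 24.7 and 24.2 CPM in the controls and 40.7, 42.9 and 41.1 CPM in the knockdown, without overlap (log2 fold change 0.75, SE 0.0554, edgeR adjusted p = 4.60e-07). It shares 293 exon bases with FAM53C on the opposite strand, and reads there cannot be told apart. CDC25B, the most abundant of the 3 phosphatases per length in the controls (71.3 RPKM, against 7.00 for CDC25A and 9.18 for CDC25C), went from 316 ± 14.9 to 326 ± 4.05 CPM (SD, n = 3 each) and did not pass (log2 fold change 0.05, SE 0.0439, edgeR adjusted p = 0.368). It passed without control replicate 3, at 0.08 (edgeR adjusted p = 0.00936; range over the alternatives 0.00936 to 1).

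**Figure D3:**
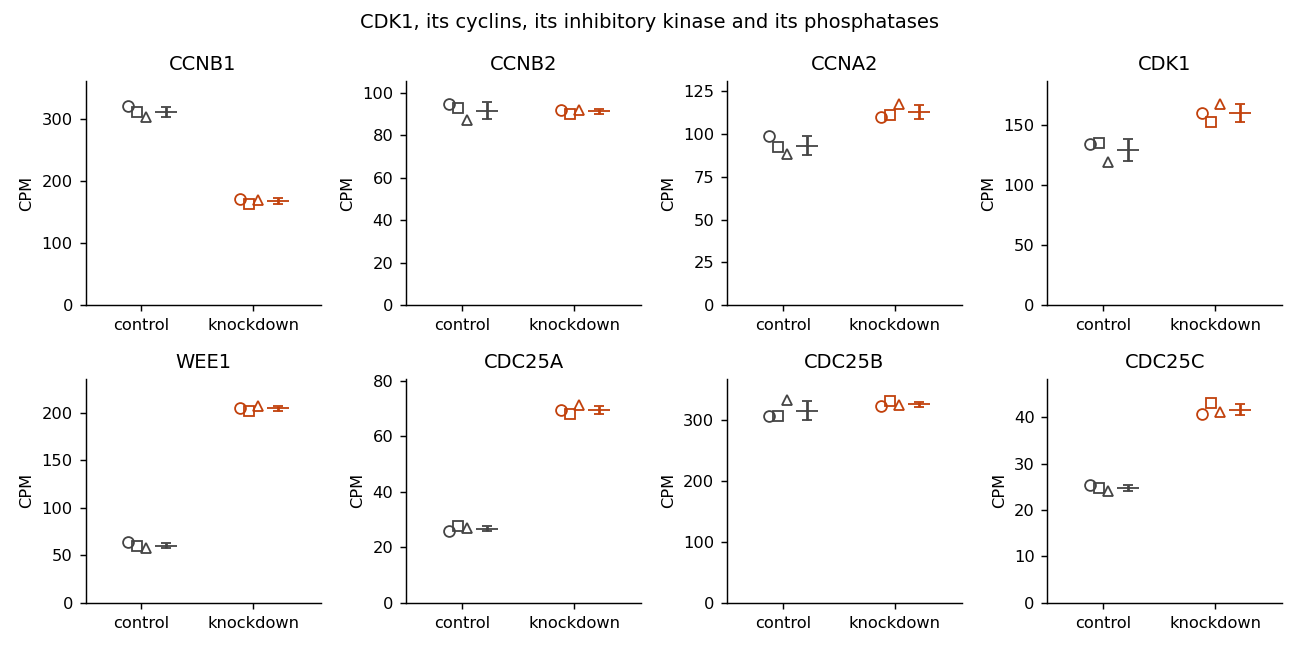
CPM (vertical axes from 0) of the 8 cyclin and CDK1 control genes in each library, with the mean and SD of each group of 3 as a bar beside the points. CCNB1 is lower and WEE1, CDC25A and CDC25C are higher in all 3 knockdown libraries, while the points of CCNB2 and CDC25B overlap between groups.

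All 4 mitotic kinases rose, by modest amounts. AURKB, the Aurora kinase of the chromosomal passenger complex, had 44.9, 44.1 and 45.7 CPM in the controls and 65.8, 66.8 and 65.1 CPM in the knockdown. The controls were close together and lay well below the knockdown libraries (log2 fold change 0.55, SE 0.0463, edgeR adjusted p = 1.24e-06). AURKA, which works at the spindle poles, had a log2 fold change of 0.28 (SE 0.0449, edgeR adjusted p = 0.000209). The rise of PLK4, which starts centriole duplication, was 0.26 (SE 0.0619, edgeR adjusted p = 0.00291). PLK1, the polo kinase of mitotic entry and spindle assembly, was closest to 0 of the 4. It had 158.6, 159.7 and 170.2 CPM in the controls and 192, 197 and 187 CPM in the knockdown, without overlap (log2 fold change 0.24, SE 0.0444, edgeR adjusted p = 0.000646).

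Among the checkpoint genes, 4 of the 5 rose. BUB1B, which encodes BubR1, a part of the inhibitor of CDC20, had 125, 127 and 115 CPM in the controls and 176, 188 and 185 CPM in the knockdown. The lowest knockdown library was far above the highest control (log2 fold change 0.58, SE 0.0509, edgeR adjusted p = 1.72e-06). It shares 457 of its 4476 exon bases with the read-through gene model BUB1B-PAK6 on the same strand, so the value is uncertain to that extent. MAD2L1, which encodes MAD2 of the same inhibitor, had 40.7, 42.7 and 35.9 CPM in the controls and 56.1, 52.5 and 54.8 CPM in the knockdown (log2 fold change 0.46, SE 0.0667, edgeR adjusted p = 0.000104). Its groups did not overlap, and control replicate 3 was the lowest library. TTK, the kinase MPS1 that starts the checkpoint signal, rose by 0.40 (SE 0.0536, edgeR adjusted p = 5.40e-05) and BUB1, a kinetochore kinase, by 0.19 (SE 0.0514, edgeR adjusted p = 0.00768). BUB3, the adaptor that brings BUB1 and BubR1 to kinetochores, had a log2 fold change of −0.05 (SE 0.0448, edgeR adjusted p = 0.343), which passed without control replicate 3, at −0.08 (edgeR adjusted p = 0.0260; range over the alternatives 0.0260 to 1).

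The target of this checkpoint, CDC20, did not pass, and UBE2C rose slightly. CDC20, the activator of the APC/C, had 160.5, 156 and 179 CPM in the controls and 166, 160.8 and 158 CPM in the knockdown. The knockdown values lay inside the range of the controls (log2 fold change −0.03, SE 0.0541, edgeR adjusted p = 0.622). UBE2C, the ubiquitin-conjugating enzyme of the APC/C, rose from 130.7 ± 4.97 to 143.7 ± 0.868 CPM (SD, n = 3 each; log2 fold change 0.14, SE 0.0431, edgeR adjusted p = 0.0157). That call was lost without knockdown replicate 1 (edgeR adjusted p = 0.0573), without knockdown replicate 2 (0.0547) and without control replicate 2 (0.0708; range over the alternatives 0.000637 to 1).

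Of the 3 centromere genes, CENPF and CENPE fell and CENPA did not pass. CENPF, a kinetochore and nuclear matrix protein of G2 and M phase, had 419.7, 439 and 379.97 CPM in the controls and 297, 310.5 and 298 CPM in the knockdown. All 3 knockdown libraries were below control replicate 3, the lowest control (log2 fold change −0.45, SE 0.0536, edgeR adjusted p = 2.06e-05). CENPE, the kinetochore kinesin that moves chromosomes to the spindle equator, fell from 110.4 ± 8.52 to 88.1 ± 5.66 CPM (SD, n = 3 each; log2 fold change −0.33, SE 0.0654, edgeR adjusted p = 0.00105). CENPA, the histone H3 variant that marks centromeres, had 38.6, 38.9 and 47.1 CPM in the controls and 46.9, 46.8 and 46.9 CPM in the knockdown. Control replicate 3 lay at the knockdown level and apart from the other controls, and the difference did not pass (log2 fold change 0.17, SE 0.0743, edgeR adjusted p = 0.0604). Without that library it was 0.27 (edgeR adjusted p = 7.71e-06), and it passed in 5 other alternatives (lowest adjusted p over the alternatives 7.71e-06, highest 1).

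Of the 4 kinesins, 1 passed, against 67.3% of all genes tested. KIF2C, the microtubule-depolymerising kinesin MCAK that corrects wrong attachments, rose from 142 ± 1.67 to 177 ± 2.21 CPM (SD, n = 3 each; log2 fold change 0.32, SE 0.0390, edgeR adjusted p = 2.57e-05). KIF11, the Eg5 motor that pushes the spindle poles apart, had 169.5, 168 and 149.5 CPM in the controls and 167, 171 and 169 CPM in the knockdown. Its groups overlapped (log2 fold change 0.06, SE 0.0519, edgeR adjusted p = 0.359). The cytokinesis motors KIF20A (0.10, SE 0.0541, edgeR adjusted p = 0.117) and KIF23 (−0.08, SE 0.0516, edgeR adjusted p = 0.192) did not pass either. KIF23 passed without control replicate 3, at −0.13 (edgeR adjusted p = 0.000644; range over its alternatives 0.000644 to 1), and KIF20A without control replicate 2, at 0.15 (edgeR adjusted p = 0.0374; range 0.0374 to 1).

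Of the 7 spindle, midzone and chromosome genes, 2 rose, 3 fell and 2 did not pass. Among all genes tested 33.1% were higher and 34.2% lower. NUSAP1, a microtubule-bundling protein near chromosomes, had 135, 141 and 128 CPM in the controls and 201, 215 and 214 CPM in the knockdown. Its groups were clearly apart (log2 fold change 0.64, SE 0.0495, edgeR adjusted p = 6.47e-07). Of its 2875 exon bases 1787 are shared with another gene model on the same strand, as are 3181 of the 5525 of PRC1. This is the larger part of each gene and makes both values uncertain. TOP2A, which untangles sister DNA, was at 657 ± 65.9 CPM in the controls and 744 ± 12.7 CPM in the knockdown (SD, n = 3 each; log2 fold change 0.18, SE 0.0636, edgeR adjusted p = 0.0271). This call was lost on leaving out knockdown replicate 1, 2 or 3 (edgeR adjusted p = 0.0518, 0.0825 and 0.0806; range over the alternatives 0.00125 to 1). Without control replicate 3 the log2 fold change was smaller, at 0.10 (edgeR adjusted p = 0.00279). PRC1, which crosslinks midzone microtubules, fell by 0.28 (SE 0.0492, edgeR adjusted p = 0.000364), and BIRC5, the passenger protein survivin, by 0.17 (SE 0.0384, edgeR adjusted p = 0.00241). HMMR, a spindle and hyaluronan-binding protein, fell by 0.19 (SE 0.0558, edgeR adjusted p = 0.0108), a call lost without knockdown replicate 1 (0.0607) or control replicate 1 (0.0704; range 3.92e-07 to 1).

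MKI67 and TPX2 did not pass. MKI67, which encodes the proliferation marker Ki-67, had 481, 508 and 462 CPM in the controls and 481, 536 and 479.7 CPM in the knockdown. The groups overlapped (log2 fold change 0.05, SE 0.0544, edgeR adjusted p = 0.477). TPX2, which activates AURKA on spindle microtubules, had the highest level per length of the 33 genes in the controls, 193 ± 8.52 RPKM (SD, n = 3), and CDC25A the lowest, 7.00 ± 0.234 RPKM. The TPX2 values in CPM did not overlap, but the fall did not pass (log2 fold change −0.09, SE 0.0406, edgeR adjusted p = 0.0661). It passed without control replicate 3, at −0.13 (edgeR adjusted p = 8.91e-05; range over the alternatives 8.91e-05 to 1).

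Ratios of reads between genes that work together were compared within each library, where library scaling cancels. CCNB1 had 2.38, 2.30 and 2.55 reads for each CDK1 read in the controls and 1.06, 1.06 and 1.01 in the knockdown. CCNB1 had 3.38, 3.35 and 3.49 reads for each CCNB2 read in the controls and 1.85, 1.80 and 1.84 in the knockdown. CDC25C had 0.398, 0.415 and 0.417 reads for each WEE1 read in the controls and 0.199, 0.213 and 0.199 in the knockdown. Both genes rose, WEE1 by more. AURKB had 0.214, 0.212 and 0.218 reads for each BIRC5 read in the controls and 0.354, 0.365 and 0.343 in the knockdown. CDC20 had 3.95, 3.65 and 4.98 reads for each MAD2L1 read in the controls and 2.96, 3.06 and 2.88 in the knockdown. These are read ratios, not molar ratios, since longer transcripts give more reads.

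The groups did not overlap for any of the 9 pairs, against 81.1% of all 528 pairs that the 33 genes can form, so the lack of overlap is common here. Differences of the log2 ratio (knockdown minus control) were −1.20 for CCNB1/CDK1, −1.01 for CDC25C/WEE1, −0.89 for CCNB1/CCNB2, −0.70 for CDC25B/CDC25C, −0.49 for CDC20/MAD2L1 and −0.40 for BUB1/BUB1B. They were 0.72 for AURKB/BIRC5, 0.37 for AURKA/TPX2 and 0.20 for KIF23/PRC1. The last is uncertain, since most exon bases of PRC1 are shared with another gene model. The exact two-sided permutation test gave p = 0.1 for each pair, also after Benjamini-Hochberg adjustment over the 9, and 0.1 is the smallest p that 3 against 3 allows. The SD of the log2 ratio within a group was between 0.0128 and 0.234, the highest for CDC20/MAD2L1 in the controls.

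**Figure D4:**
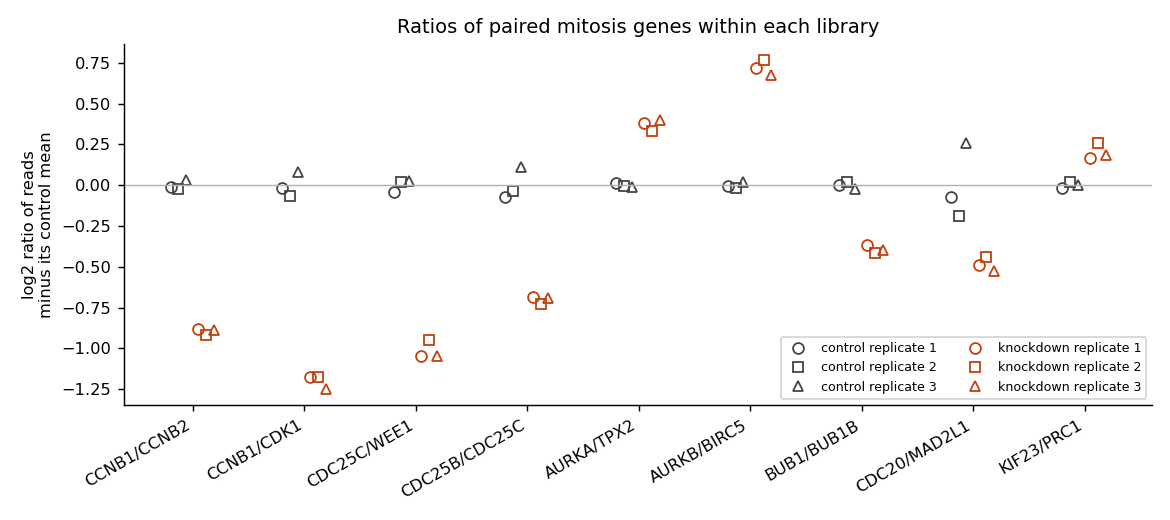
The vertical axis is the log2 ratio of reads of each pair in each library, minus the mean of the 3 controls; grey points are controls and orange points knockdown libraries. CCNB1/CDK1 lies lowest, at a difference of −1.20, and AURKB/BIRC5 highest, at 0.72, and no pair overlaps between groups.

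Other genes of cell division were read from 11 further lists (135 genes, all tested), of which 70 rose, 28 fell and 37 did not pass, with a median log2 fold change of 0.19. Counts are to be read against 33.1% higher and 34.2% lower among all genes. The lists were also chosen with earlier results of these data known, so their counts are descriptive. In the outer kinetochore 12 of 19 rose and 2 fell, with ZWINT, a scaffold for checkpoint proteins, at 0.71 (SE 0.0406) and SKA1, which couples kinetochores to microtubules, at 0.61 (SE 0.0581). In the inner centromere 10 of 17 rose and 2 fell, with OIP5, a part of the CENP-A loading complex, at 0.78 (SE 0.0540) and CENPK at 0.78 (SE 0.0611). Of 8 condensin subunits 6 rose and 1 fell; NCAPH rose by 0.55 (SE 0.0480) and NCAPD2 fell by 0.33 (SE 0.0393). Of 8 other mitotic kinesins 6 rose and 1 fell, with the chromokinesins KIF4A at 0.72 (SE 0.0433) and KIF22 at 0.57 (SE 0.0483).

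In the list of the anaphase-promoting complex and its partners, 2 of 17 genes rose (11.8%), 6 fell (35.3%) and 9 did not pass. The share that fell was near that of all genes, and the share called was 47.1% against 67.3%. The 2 that rose were ANAPC11, the RING subunit, and FBXO5, the inhibitor EMI1, which is no subunit. The number of rises was 4 without control replicate 3 and 1 without control replicate 1 or knockdown replicate 1. ANAPC7, a subunit of the complex, fell from 121 ± 3.43 to 40.8 ± 0.310 CPM (SD, n = 3 each; log2 fold change −1.56, SE 0.0451, edgeR adjusted p = 5.19e-10), the largest change among the 135 genes. ANAPC5, another subunit, fell from 136 ± 5.32 to 76.6 ± 0.861 CPM (SD, n = 3 each; log2 fold change −0.83, SE 0.0451, edgeR adjusted p = 4.31e-08). Whether this list differs from the others was not tested.

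Of 13 transcriptional regulators of mitotic genes 4 rose and 5 fell, with LIN54, the DNA-binding subunit of the MuvB complex that reads the CHR, at 0.93 (SE 0.0624) and MYBL2, the B-MYB factor that joins MuvB in S and G2 phase, at 0.66 (SE 0.0548). The 5 that fell were LIN52 at −0.57 (SE 0.0930), RBL2 at −0.50 (SE 0.0597), E2F4 at −0.48 (SE 0.0575), RBBP4 and RBL1. The last 2 were at −0.19 (SE 0.0493) and −0.18 (SE 0.0679). Of 11 other CDK1 control genes 7 rose and 2 fell, with MASTL, the Greatwall kinase, at 0.67 (SE 0.0721) and CKS2 at 0.38 (SE 0.0474). Of 15 cohesin and separase genes 7 rose and 3 fell, with CDCA5, the cohesion protein sororin, at 0.74 (SE 0.0420) and STAG1 at −0.42 (SE 0.0555). Of 19 spindle and centrosome genes 12 rose and 3 fell, with NDE1 at 0.75 (SE 0.0414) and CLASP2 at 0.77 (SE 0.0464). Of 6 cytokinesis genes 3 rose and 2 fell, with ANLN, the contractile ring protein anillin, at 0.54 (SE 0.0485). The partners of AURKB and BIRC5 in the passenger complex split, with CDCA8 (borealin) at 0.43 (SE 0.0390) and INCENP at −0.18 (SE 0.0585). Falls in small lists depended on single libraries. The 2 falls in the inner centromere became 0 or 1 without control replicate 1 or any 1 knockdown library, and the 2 in cytokinesis became 0 or 1 without control replicate 1 or 2 or knockdown replicate 2 or 3. The 2 in other CDK1 control became 1 without control replicate 1 or knockdown replicate 1 or 3. The 3 in cohesin and separase became 1 without control replicate 1, and the call of INCENP was lost without knockdown replicate 1 or 3. For comparison, 15 of 19 S phase markers rose and 4 fell, with a median of 0.37. CDC6 was at 0.88 (SE 0.0447) and CCNE2 at 1.49 (SE 0.0825). The 4 that fell were MCM5 at −0.77 (SE 0.0623), MCM3 at −0.56 (SE 0.0402), MCM6 at −0.55 (SE 0.0545) and RRM2 at −0.28 (SE 0.0376).

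**Figure D5:**
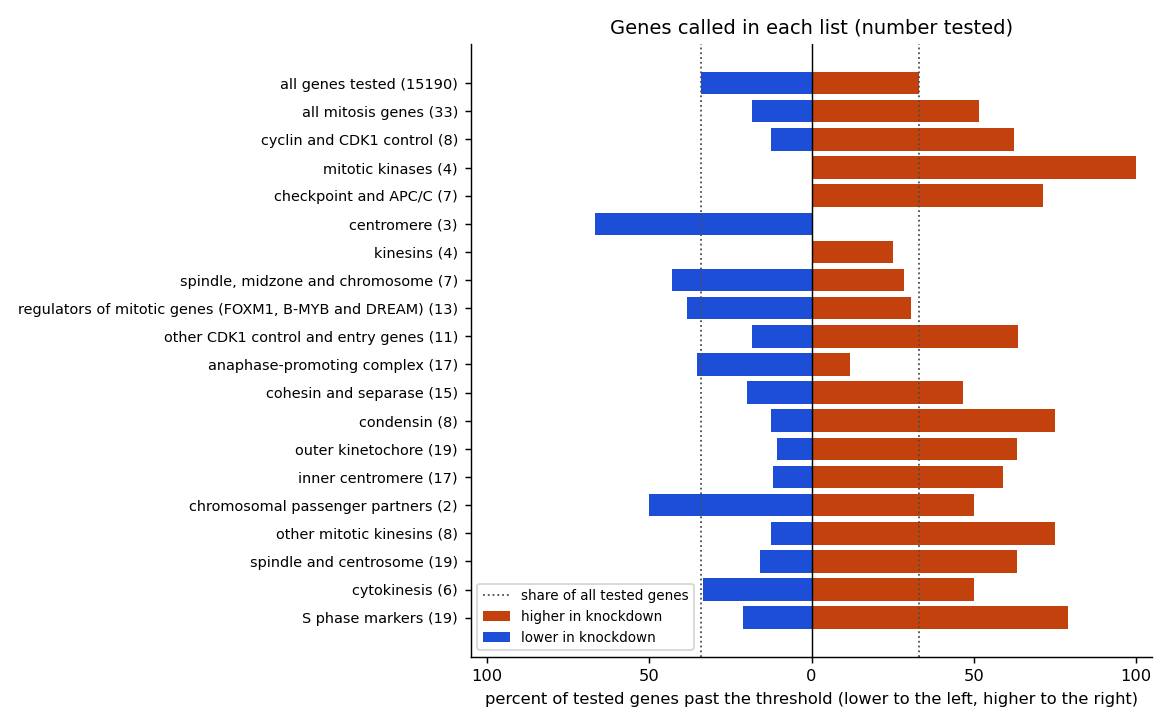
Bars give the percent of tested genes in each list that were called higher (orange, right) or lower (blue, left) in the knockdown, with the number tested in brackets; dotted lines mark the shares of all 15190 genes. All 4 mitotic kinases lie to the right, and the anaphase-promoting complex list has 2 of 17 genes higher and 6 lower, the latter near the dotted line.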

How the data were processed

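Per the submitters' processing notes, reads were aligned with GSNAP to GRCh38; its version, the annotation release and the strand setting are not stated there. Per the file headers, the deposited count is of reads aligned uniquely to a gene model, and the deposited RPKM were adjusted by the authors with a size factor. Counts were used for all tests and RPKM only for levels per length. Symbols came from RefSeq (GRCh38.p14) for 27814 of 30727 gene IDs. Counts were filtered with filterByExpr (minimum count 10, minimum total 15), which left 15190 genes, scaled with TMM and tested in one fit of 3 knockdown against 3 control libraries with edgeR 4.0.16 (glmQLFit, glmQLFTest, two-sided) in R 4.3.3; adjustment was Benjamini-Hochberg over all genes, threshold 0.05. The test was checked on simulated counts in which 14703 of 14891 genes were unchanged, a setting unlike these data, where 67.3% of genes were called. It called 60% of genes changed 1.25-fold, 89.8% of those changed 1.5-fold and 0.0748% of the unchanged genes. Of genes changed 2-fold it called 87%, so the share did not rise steadily with the size of the change. How often changes near 1.25-fold are missed among the mitosis genes cannot be read from that setting. SE is the log2 fold change over the square root of F. CPM are TMM-scaled. Replicate numbers only name libraries. The members and lists were chosen with earlier results of these data known. Values per library are given for members past the threshold with a log2 fold change of at least 0.4 in size and for the member of each role group closest to 0, and of each further list the genes with the smallest p are named. All falls are also named for the transcriptional regulators and the S phase markers. Also named are PKMYT1 and, in the list of the anaphase-promoting complex, the rises and UBE2S.

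Without strand, reads in exons shared with an antisense gene cannot be told apart. By GENCODE 29, CDC25C shares 293 exon bases with FAM53C, CCNA2 254 with EXOSC9, PLK1 553 and PRC1 406 with antisense genes, and NUSAP1 1787, PRC1 3181, BUB1B 457, CENPA 138 and WEE1 104 with a gene model on the same strand; HMMR, KIF20A, KIF23, KIF2C and MAD2L1 share 44 to 231 with antisense genes. These values are uncertain to that extent. Alternatives were DESeq2 1.42.0 size factors and Wald test, upper-quartile scaling, no filter, mean log2 CPM of at least 1, limma-voom (limma 3.58.1), glmTreat at 1.5-fold, thinning to 20863594 reads and leaving out each library.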

Additional observations from a re-analysis of the deposited data

How the results depend on the processing

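The counts of mitosis genes called kept within 1.5 times of 17 higher and 6 lower in every alternative but the test against a 1.5-fold change, in which 3 were higher and 1 lower, and 2998 of all genes passed. Leaving out each library gave 15 to 19 higher, 5 to 9 lower and 9184 to 11277 of all genes called. CCNB2 changed sign around 0 with DESeq2 size factors (0.0079), mean log2 CPM of at least 1 (0.013), the DESeq2 Wald test (0.0080) and thinning (0.0032); leaving out each library gave −0.041 to 0.030. CDC20 ran from −0.065 to 0.026 (without control replicate 3), KIF11 from −0.0044 (without control replicate 3) to 0.094, and MKI67 from −0.0085 (without knockdown replicate 2) to 0.088 on leaving out each library; none of these was called. The other 29 genes and all 9 ratios kept their direction in the alternatives run. WEE1, CDC25A, CDC25C and CCNB1 passed in every alternative. Of the 23 calls, 19 did not pass against a 1.5-fold change. No paired analysis was possible because the labels carry no replicate numbers. The smallest change called was that of UBE2C, 0.14 on the log2 scale, and no member with a smaller one passed in the analysis reported.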

Other observations

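The mitosis genes varied less among the controls when control replicate 3 was left out, as did all genes tested. The coefficient of variation of CPM had a median of 5.45% over the 33 genes in the 3 controls and 2.49% in the 3 knockdown libraries, and it was higher in the controls for 29 of the 33. Without control replicate 3, an alternative chosen after seeing the data, the control median was 1.55% from 2 libraries, and it was higher in the controls for 11 of the 33, so the direction turned. Over all genes tested the medians were 7.40% and 4.09%, and 3.39% for the controls without that library. The direction of the medians turned there too. No other library was left out for this comparison, which then sets 2 control libraries against 3 knockdown libraries. Control replicate 3 was the lowest control for 25 of the 33 genes and the highest for 6. Leaving it out was therefore likely to narrow the control spread, and the turn is descriptive only. CENPA (11.6%) and TOP2A (10.03%) varied most among the 3 controls and BIRC5 least (0.435%). The 33 genes together took 0.641%, 0.647% and 0.596% of reads in the controls and 0.660%, 0.673% and 0.674% in the knockdown libraries; the lowest share was that of control replicate 3.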
